A study of Mus musculus with 12 samples.

Results

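The microRNAs (miRNAs) of 4T1 were compared with those of 67NR on 6 Agilent mouse miRNA arrays, 3 for each cell line. The members are the 189 mouse miRNAs whose signal stood well above background on every array of 1 line or of both, out of 567 mouse miRNAs on the array and 224 tested in the series. Both lines are wild type, female and of the BALB/c strain, and come from a breast cancer that arose spontaneously in a mouse. 67NR is labelled non-metastatic and 4T1 metastatic, and no group carries a transgene, deletion or treatment. The series holds 12 such arrays, with 168FARN and 4TO7 as its other lines, both labelled non-metastatic, and asks which miRNAs go with the steps of metastasis. Each array received 100 ng of total RNA taken with Trizol. Whether the repeats were grown separately is not in the labels, so p-values here reflect only how far these samples vary, and that variation may be technical. Each line is 1 established line, so line and metastatic label cannot be told apart.

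miRNAs are short RNAs that guide Argonaute proteins to messenger RNAs, mostly through base pairing of the seed, the bases near the 5′ end of the miRNA, and so lower the output of those messages. A hairpin precursor gives a guide strand and a partner, the star or passenger strand, and many hairpins are cut from 1 long transcript as a cluster. miRNAs that share a seed form a family with overlapping targets. In breast cancer, let-7 and miR-34a are known as growth-restraining miRNAs, the miR-17-92 cluster and miR-21 as growth-promoting ones, and miR-10b, miR-31 and miR-148a have each been linked to metastasis.

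The 67NR arrays stood apart from the 4T1 arrays in more than their miRNAs. All 3 lie on 1 slide and the 3 4T1 arrays on the other. Slide and line thus cannot be told apart between these 2 lines alone, and no comparison of the 2 within a slide exists. Arrays of 4T1 correlated at 0.9992 to 0.9995 over the tested miRNAs and arrays of 67NR at 0.9934 to 0.9992, against 0.6257 to 0.6364 between the lines. On the 67NR arrays 141 to 160 miRNAs were read, meaning well above background, and on the 4T1 arrays 166 to 186. The 75th percentile used for scaling was 358 to 460 signal units in 67NR and 889 to 1136 in 4T1. The control probe hur_5 gave 180 to 207 units on the 67NR arrays and 3.93 to 6.36 on the 4T1 arrays, and hur_1 gave 189384 to 215403 against 53361 to 62155. hur_2 and hur_4 were also higher on the 67NR arrays with no overlap, hur_6 was lower there (59522 to 66414 against 72153 to 88683), and mr_1 overlapped at 11504 to 13099 and 11515 to 13017. On the 168FARN arrays hur_5 gave 1.25 to 3.44 units and hur_1 50789.5 to 67010, and on the 4TO7 arrays 1.37 to 2.49 and 45129 to 49181. The 168FARN array on the slide of 67NR gave 1.25 and 67010. hur_4 on the 168FARN arrays (11273 to 17686) and hur_6 on the 4TO7 arrays (56446 to 62462) overlapped 67NR. The part of these differences in the results was not tested.

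The mature sequences on which the comparison turns are given 5′ to 3′ with the seed (bases 2 to 8) in capitals, from RefSeq on build GRCm38.p6. The array's older names were matched to RefSeq for 139 of the 189 members. The first set shows the family with the most members that were higher in 4T1, and how few bases set its members apart.
let-7a: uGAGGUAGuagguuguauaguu
let-7c: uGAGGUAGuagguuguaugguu
let-7b: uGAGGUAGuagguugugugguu
let-7d: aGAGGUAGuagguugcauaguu
let-7i: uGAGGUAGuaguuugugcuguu
The next set shows miRNAs with 1 seed that were called in opposite directions on the main scale (the direction of miR-29c turned under other scalings), or of which 1 passed the test and the other did not.
miR-130a: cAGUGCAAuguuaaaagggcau
miR-130b: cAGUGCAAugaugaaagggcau
miR-29a: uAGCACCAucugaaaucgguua
miR-29c: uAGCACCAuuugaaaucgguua
miR-27a: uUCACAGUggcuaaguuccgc
miR-27b: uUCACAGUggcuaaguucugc
The last set shows both strands of the miR-17 hairpin and other miRNAs with large differences in either direction.
miR-17: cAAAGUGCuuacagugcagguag
miR-17*: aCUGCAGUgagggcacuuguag
miR-125b-5p: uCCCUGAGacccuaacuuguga
miR-21: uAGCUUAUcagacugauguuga
miR-34a: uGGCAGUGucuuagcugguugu
miR-10a: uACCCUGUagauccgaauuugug
miR-10b: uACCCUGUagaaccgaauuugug

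Most of the 189 miRNAs differed between the lines. With limma and a Benjamini-Hochberg adjusted p below 0.05, 72 were higher in 4T1, 103 were lower and 14 did not pass. Over all 224 miRNAs tested, 79.5% passed, 32.1% as higher and 47.3% as lower. The values of the 3 arrays of each line did not overlap for 179 members, against 81.2% of those tested. At least 2-fold differences were found for 50 members higher (22.3% of those tested) and 80 lower (36.2%). The 189 fall into those read on all 6 arrays (118), those read in 4T1 and on no 67NR array (42), those read in 67NR and on no 4T1 array (18), and those read on part of the other line's arrays (6 on the 4T1 side and 5 on the 67NR side). For the 42 and the 18 the direction follows largely from being read in 1 line, and their counts are no separate result. Among the 118, 31 were higher, 78 lower and 9 did not pass.

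**Figure D1:**
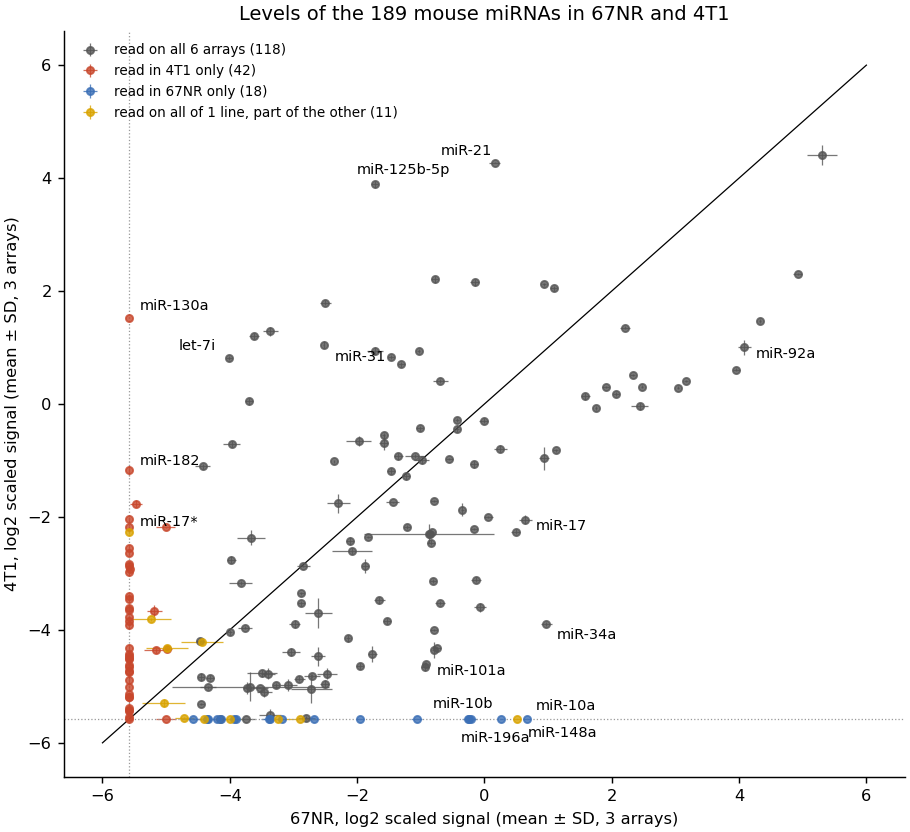
Mean level of the 189 miRNAs in 67NR (x axis) and 4T1 (y axis), in log2 of the scaled signal, with the SD of 3 arrays as bars and 1 point a miRNA. Points on the dotted lines are at the floor of -5.58; miR-21, miR-125b-5p and miR-130a lie far above the diagonal of equal levels, and miR-34a, miR-10a and miR-148a far below it.

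The balance of higher and lower depended on how the arrays were scaled. Levels are log2 of the signal after division by each array's 75th percentile over 170 probes read on all 12 arrays, with values below a floor of -5.58 set to it. On that scale the median difference of the 118 miRNAs was -1.06. It was -0.36 when scaled to the upper quartile of all probes (their 75th percentile), -0.65 with quantile scaling, -0.01 with a median ratio of the probes and 0.24 with no scaling. The split of higher and lower over all tested was 72 and 106 on the main scale, 90 and 87, 91 and 90, and 98 and 79 under the first 3 of these, and 104 and 66 with no scaling. All 72 higher calls kept their direction and passed under those 4 other scalings, as did 66 of the 103 lower ones. The normexp background correction was also tried in place of the deposited one, with an offset of 50 units added before the scaling. With it 39 were higher and 172 lower, and 27 of the 72 higher members, with differences of 0.14 to 1.93, turned sign. Among the 118 the 43 lower calls that held had differences of -1.71 to -4.87, and the 35 that did not had differences of -0.19 to -1.64. Small differences are therefore relative to the scale, and a called miRNA described next kept its direction under the 4 other scalings unless said otherwise.

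**Figure D2:**
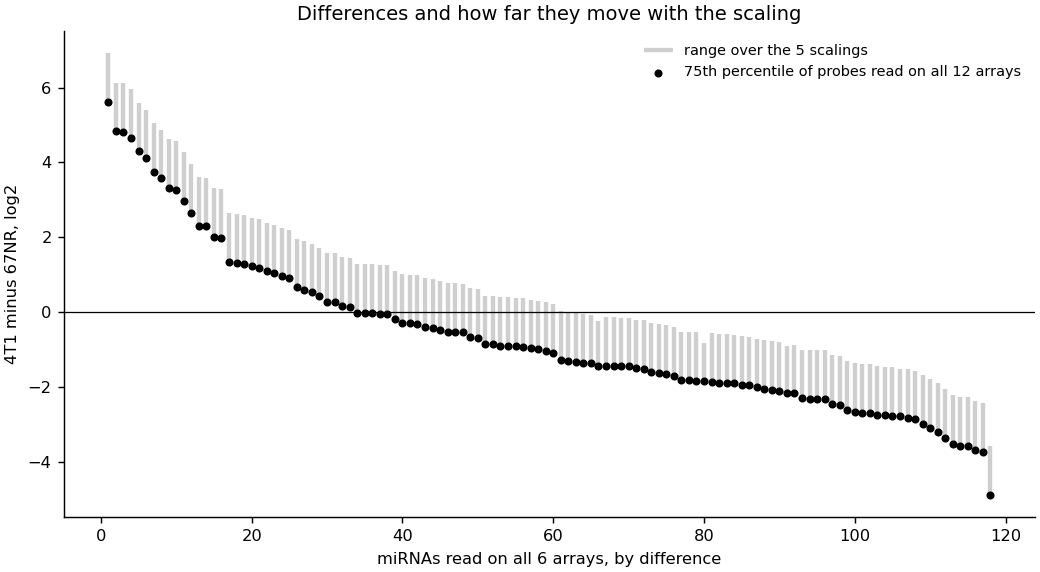
Difference between 4T1 and 67NR (log2, y axis) for the 118 miRNAs read on all 6 arrays, ordered by difference (x axis). Points are the main scaling and grey bars the range over the 5 scalings; bars cross 0 only near the middle of the order, and the 12 highest and 12 lowest miRNAs stay on their side.

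The highest miRNA in 4T1 relative to 67NR, among those read on all 6 arrays, was miR-125b-5p, known as a repressor of p53 and of cell death genes. It read -1.79, -1.69 and -1.69 on the 67NR arrays and 3.83, 3.87 and 3.96 on the 4T1 arrays. The arrays of each line lay close together and far from those of the other. The difference was 5.61 ± 0.04 (SE, log2), or 48.9-fold, with a limma adjusted p of 2.59e-16. In RNA of a whole culture, a change in every cell and a change in the share of cells that hold the miRNA cannot be told apart.

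Every guide strand of the let-7 family on the array was higher in 4T1. This family represses growth genes such as Ras, Myc and Hmga2 in other systems. All 9 members passed as higher, where 32.1% of all miRNAs tested did, with a median difference of 2.82 against -0.05 over all tested, and all 9 also passed under the 4 other scalings. let-7i read -4.06, -4.0 and -3.97 in 67NR and 0.80, 0.80 and 0.86 in 4T1, a 28.5-fold difference. let-7d read -3.63, -3.53 and -3.69 against 1.16, 1.18 and 1.27, a 28.3-fold difference. The size of the difference was uneven within the family. let-7b was 25.2-fold higher and let-7c 19.7-fold, let-7g 4.01-fold, let-7f 2.27-fold and let-7e 2.13-fold. let-7a had the smallest difference of the family at 1.94-fold, reading 1.07, 1.14 and 1.04 in 67NR against 2.02, 2.03 and 2.09 in 4T1. miR-98, which carries the let-7 seed, was read on no 67NR array and was at least 6.10-fold higher in 4T1. let-7b and a copy of let-7c lie together on chromosome 15, at chr15:85707325-85707346 and chr15:85706616-85706637 on the plus strand of GRCm38.p6, within the bounds of the long non-coding RNA gene Lncppara; let-7c is also encoded at another locus, and its value cannot be assigned to either. let-7a and let-7c differ by 1 base, A19G counted from the 5′ end of let-7a, and let-7a and let-7d by U1A and U16C. How far the probes tell such close sequences apart was not tested.

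miR-21, which represses the tumour suppressor Pdcd4, read 0.15, 0.26 and 0.09 in 67NR and 4.27, 4.27 and 4.28 in 4T1. All 4T1 arrays were above all 67NR arrays, and the difference was 4.11 ± 0.06 (SE, log2), or 17.3-fold, with a limma adjusted p of 6.70e-14. Its hairpin lies within the bounds of the protein-coding gene Vmp1, at chr11:86584120-86584141 on the minus strand. The partner strand miR-21* was read on no 67NR array and was at least 2.67-fold higher in 4T1, a call that was lost with normexp. miR-31, reported to suppress metastasis in breast cancer, read -2.52, -2.53 and -2.53 in 67NR and 1.02, 1.01 and 1.12 in 4T1, an 11.9-fold difference. Its partner strand miR-31* was higher by a similar amount, 9.62-fold. Both strands of the miR-31 hairpin and both strands of the miR-21 hairpin were thus higher in 4T1.

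The other miRNAs among the 12 with the largest positive differences were miR-709 (a log2 difference of 3.74), miR-100 (3.32), miR-29a (2.98) and miR-23a (2.64). miR-29a, which represses collagens and other matrix genes, read -0.83, -0.72 and -0.78 in 67NR and 2.19, 2.14 and 2.28 in 4T1. miR-23a read -1.85, -1.67 and -1.62 against 0.87, 0.92 and 1.01. miR-27a, its neighbour on chromosome 8, was 4.91-fold higher, and miR-24, cut from 2 clusters that hold the miR-23 and miR-27 miRNAs, was 3.94-fold higher. Of the 5 miRNAs of these clusters 4 passed as higher, beside 32.1% of all tested; miR-23b did so at 1.34-fold, and miR-27b had a difference of 0.18 ± 0.08 with a limma adjusted p of 0.071.

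**Figure D3:**
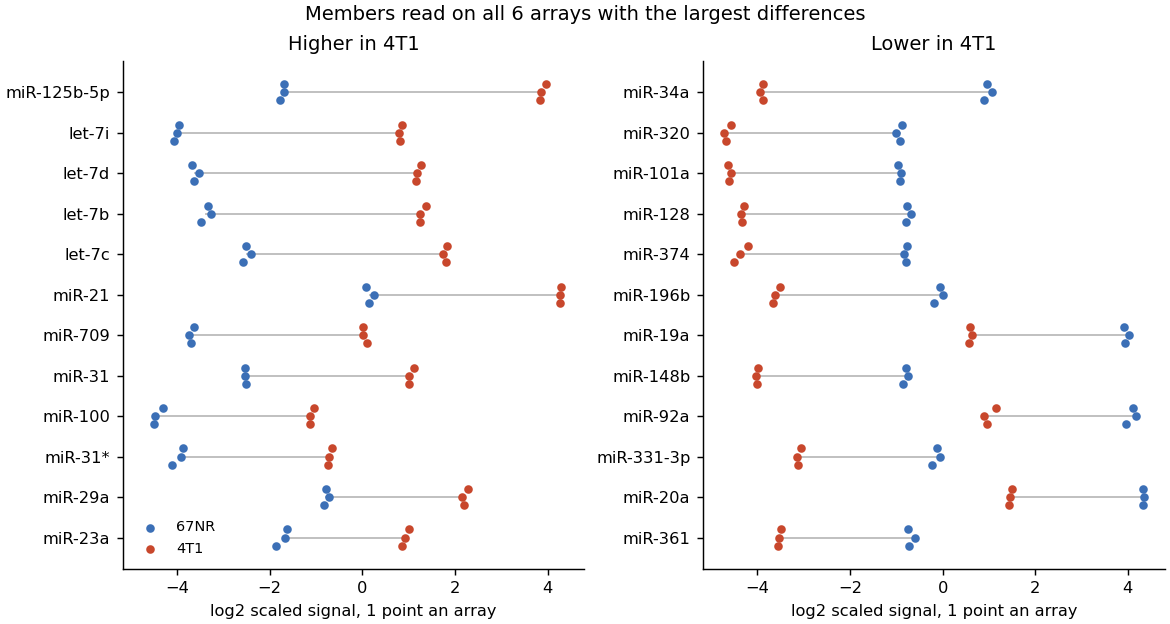
Log2 scaled signal (x axis) on each of the 3 arrays of 67NR (blue) and of 4T1 (red) for the 12 miRNAs read on all 6 arrays with the largest positive differences (left) and the 12 with the largest negative ones (right). The points of the lines are apart in each row, and those of a line lie close together.

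Among the 42 miRNAs read in 4T1 and on no 67NR array, miR-130a stood first. It read 1.53, 1.52 and 1.53 on the 4T1 arrays and the floor on every 67NR array. The fold cannot be given more closely than at least 81.6, the level in 4T1 over the lowest level read on each 67NR array. It is encoded at chr2:84741116-84741137 on the minus strand. miR-182, an oncogenic miRNA of the miR-183 cluster, was at least 12.5-fold higher, reading -1.25, -1.22 and -1.06 in 4T1 against the floor on each 67NR array. Its cluster partners were read in both lines with smaller log2 differences, 0.59 for miR-96 and 0.53 for miR-183, which no longer passed with normexp. miR-345-5p followed at 8.32-fold or more, miR-350 at 6.86-fold or more and miR-155, a miRNA of immune activation that is also raised in breast tumours, at 6.22-fold or more. Of the 42, 31 had a bound above 1 and 18 a bound of 2 or more. The others were read so near the floor that no fold can be given.

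A block of miRNAs from an intron of Sfmbt2, a rodent-specific expansion with many close copies, was read in 4T1 and not in 67NR. Of its 25 miRNAs on the array 13 are members, all read on the 3 4T1 arrays and on no 67NR array. Of these 11 passed as higher, a direction set largely by being read in 1 line, and 2 did not pass; over all tested 32.1% were higher. All 13 were also read on every 4TO7 array and on no 168FARN array, and miR-467a* gave 143 ± 14.04 signal units (SD, n = 3) in 4T1 and 147 ± 8.80 in 4TO7. With the normexp background correction 3 passed as higher and 8 of the 11 turned sign, so the sign of most on the scaled levels depended on this setting. It adds an offset of 50 units before the scaling, which divides the 67NR arrays by lower percentiles than the 4T1 arrays. miR-467b, whose sign turned, gave -0.77 ± 1.13 units (SD, n = 3) in 67NR and 82.7 ± 9.96 in 4T1 before scaling. The part of the offset in the turned signs was not tested. miR-467a* was at least 3.89-fold higher, reading -2.92, -2.87 and -2.80 in 4T1 against the floor in 67NR. Many of these miRNAs are near-identical copies, and their values cannot be assigned to 1 locus.

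Among miRNAs lower in 4T1 and read on all 6 arrays, miR-34a had the largest difference. It is a direct target of p53 that restrains the cell cycle. It read 0.90, 1.06 and 0.96 on the 67NR arrays and -3.88, -3.94 and -3.88 on the 4T1 arrays. No 4T1 array came near a 67NR array, and the difference was -4.87 ± 0.05 (SE, log2), a 29.3-fold lower level with a limma adjusted p of 5.11e-15. Its relatives miR-34b-3p, miR-34b-5p and miR-34c were read on no array of either line. Its locus is chr4:150068473-150068494 on the plus strand.

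The next were miR-320 (13.2-fold lower), miR-101a (12.8-fold), miR-128 (11.9-fold), miR-374 (11.8-fold) and miR-196b (11.5-fold). miR-101a, which represses Ezh2 in other systems, read -0.91, -0.90 and -0.96 in 67NR and -4.61, -4.57 and -4.62 in 4T1. Its relative miR-101b went the other way: it was at the floor on each 67NR array and read -2.60, -2.51 and -2.53 in 4T1, at least 4.85-fold higher. The RefSeq form of miR-101b starts 1 base earlier, and over the 18 bases they share the 2 differ by 1, A16G counted from the 5′ end of miR-101a. miR-148b was 9.20-fold lower. miR-148a, which has been described as a suppressor of metastasis, read 0.54, 0.53 and 0.44 in 67NR and the floor on each 4T1 array, although 2 of the 3 4T1 arrays marked it as read. It was at least 67.8-fold lower, taken over the floor. miR-331-3p was 7.87-fold lower and miR-361 7.12-fold.

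The 4 members encoded in the Hox clusters were lower in 4T1, 3 of them unread there. These clusters set position along the body axis, and their miRNAs are transcribed with the neighbouring Hox genes. All 4 passed as lower, beside 47.3% of all tested, and the direction of the 3 unread ones follows largely from that. Of the 6 Hox cluster miRNAs on the array the other 2 were not tested: miR-615-3p was read on 2 67NR arrays and on no 4T1 array, and miR-615-5p on no array of either line. miR-10a read 0.62, 0.73 and 0.64 in 67NR and the floor on each 4T1 array, at least 75.8-fold lower. miR-10b read 0.27, 0.29 and 0.24 against the floor, at least 57.4-fold lower. miR-196a was at least 41.4-fold lower. miR-196b, the fourth, was read on all 6 arrays at -0.18, 0.01 and -0.06 against -3.66, -3.63 and -3.51. miR-10a lies at chr11:96317186-96317208 within the bounds of Hoxb3, and miR-10b at chr2:74726074-74726096 within those of Hoxd3 and Hoxd4, both on the plus strand. The pair differs by 1 base, U12A counted from the 5′ end of miR-10a.

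Among the other miRNAs read in 67NR and on no 4T1 array, miR-218 was at least 40.4-fold lower in 4T1, miR-342-3p, within Evl, at least 39.8-fold and miR-590-5p at least 22.9-fold. miR-218 is encoded on chromosome 11, within the bounds of Slit3, and on chromosome 5, and its value cannot be assigned to either locus. miR-218 read -0.25, -0.22 and -0.25 in 67NR. All 18 miRNAs of this class had a bound above 1, and 17 a bound of 2 or more. Before scaling the 4T1 arrays had the higher 75th percentile, and the part of this in which miRNAs were read in each line was not tested.

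The miR-17-92 cluster and its paralogs, which promote the cell cycle and are Myc targets, were lower in 4T1 as a group. All 11 members passed as lower, where 47.3% of all miRNAs tested did, with a median difference of -2.75; the direction held for 11 of 11 under each scaling, and 9 of the 11 also passed under all 4. The 2 exceptions were miR-25 (-1.45) and miR-93 (-1.60), both of the cluster within Mcm7. miR-19a read 3.95, 4.02 and 3.91 in 67NR and 0.58, 0.63 and 0.60 in 4T1, a log2 difference of -3.36. miR-20a read 4.32, 4.34 and 4.33 against 1.44, 1.46 and 1.5, a 7.27-fold lower level. The lines were apart on every array for both. miR-92a was 8.46-fold lower, miR-18a 6.72-fold, miR-17 6.45-fold and miR-19b 6.13-fold. The second cluster, on the X chromosome, gave nearly the same values, with miR-106a 6.74-fold and miR-20b 6.78-fold lower. miR-17 and miR-106a differ by 1 base, U10A counted from the 5′ end of miR-17. Whether their probes tell them apart was not tested.

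The other strand of the miR-17 hairpin went the opposite way. The brightest probe of miR-17* was read on no 67NR array, where it was at the floor, and read -2.25, -2.25 and -2.30 in 4T1, at least 5.89-fold higher over the lowest level read. A dimmer probe of miR-17* was read on 1 of the 67NR arrays. miR-17 itself read 0.68, 0.53 and 0.71 in 67NR against -2.15, -2.0 and -1.99. Before scaling miR-17* and miR-17 gave 217 and 252 units in 4T1, 86.7 and 97.1 in 168FARN and 138 and 159 in 4TO7. In 67NR they gave 3.28 and 658 units, so 67NR was the line in which the strands stood apart. miR-20a* also passed as higher, at least 1.25-fold, against a lower miR-20a, but its direction turned with the normexp background correction. It gave -0.27 units in 67NR, 45.7 in 4T1, 16.1 in 168FARN and 25.5 in 4TO7. miR-18a*, the third passenger strand of the cluster among the members, was lower with miR-18a, 6.31-fold. Of 29 hairpins with both strands among the members, 21 had both strands called in 1 direction, 4 had them called in opposite directions and 4 had 1 strand that did not pass. Over all tested 32.1% passed as higher and 47.3% as lower. Many of the 21 hold a strand not read on all 6 arrays, such as miR-21* or miR-10a*, whose direction follows largely from that. Some of these strands, miR-29b*, miR-99b* and miR-193* among them, turned sign with normexp. The 4 opposed hairpins were those of miR-17, miR-20a, miR-125a and miR-30b, and in 1 of them, miR-17, both calls kept their sign under each scaling and with normexp. miR-30b at -0.28 turned sign under other scalings, and miR-30b* at 0.38 with normexp.

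The miRNAs with the miR-15/16 seed were lower in 4T1. They restrain the cell cycle through cyclins and Bcl2. Of 7 in the list 6 passed as lower, beside 47.3% of all tested. miR-503, of the same list, was read in 4T1 near the floor and on no 67NR array, and passed as higher, but turned sign with normexp. It was also read on all arrays of 168FARN and 4TO7. miR-16 read 2.46, 2.49 and 2.46 in 67NR and 0.28, 0.30 and 0.33 in 4T1, a 4.49-fold lower level. miR-15a was 3.84-fold lower, miR-195 4.29-fold and miR-497 3.73-fold, the first beside a copy of miR-16 on chromosome 14 and the last 2 together on chromosome 11. miR-15b at -0.86 and miR-322 at -0.53 turned sign under other scalings, and the probes of miR-322 disagreed, at -0.53 and 0.89. miR-221 was 5.58-fold lower in 4T1 and its neighbour miR-222, with the same seed, 4.19-fold. miR-103 and miR-107 were both 3.53-fold lower.

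Some miRNAs that share a seed went different ways. Among the 139 members with a RefSeq sequence 19 seeds are shared by 58 miRNAs; for 12 seeds all were called in 1 direction, for 4 in both directions, and for 3 some did not pass. Members with no matched sequence, such as miR-23b, are not in these counts. Over all tested 32.1% passed as higher and 47.3% as lower. Members read in 1 line alone, such as miR-10a and miR-10b, take their direction largely from that. For 1 of the 4, that of miR-130a and miR-130b, opposed calls kept their sign under each scaling and with normexp. The widest gap was between miR-130a, at least 81.6-fold higher in 4T1, and miR-130b. The latter read -0.21, -0.10 and -0.18 in 67NR and -2.23, -2.22 and -2.20 in 4T1, a 4.14-fold lower level. They differ by U11A and A13G counted from the 5′ end of miR-130a, as shown above. miR-29a (2.98) and miR-29b (2.31) were higher, whereas miR-29c had a difference of -0.42; miR-29a and miR-29c differ by C10U, counted from the 5′ end of miR-29a. miR-100 (3.32) and miR-99b (1.32) were higher and miR-99a had -0.32. Both miR-29c and miR-99a passed as lower on the main scale and turned sign under other scalings, so their direction is not settled. miR-27a was 4.91-fold higher and miR-27b did not pass, with 1 base between them, C19U counted from the 5′ end of miR-27a.

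**Figure D4:**
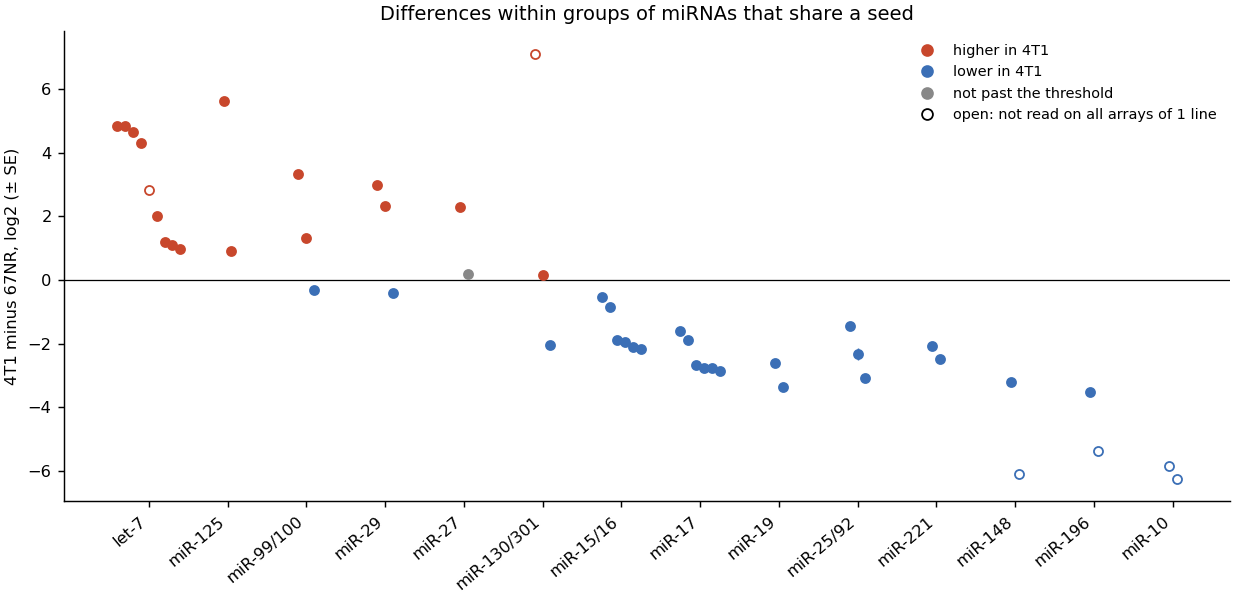
Difference between 4T1 and 67NR (log2 ± SE of the limma fit, y axis) for groups of miRNAs that share a seed (x axis), 1 point a miRNA. The 9 let-7 miRNAs lie above 0 and the miR-15/16, miR-17, miR-19 and miR-25/92 groups below it, while miR-130a and miR-130b lie on opposite sides; open points were not read on all arrays of 1 line and are set by the floor there.

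Of 16 genomic clusters with members from 2 or more hairpins within 10 kb, counted over the 139 members with a RefSeq position, 4 had all members higher and 4 all lower, 5 had members called in both directions and 3 had members that did not pass. In 1 of the 5, the miR-17-92 cluster on chromosome 14, opposed calls kept their sign under each scaling and with normexp. Over all tested 32.1% passed as higher and 47.3% as lower. The 4 higher ones were those of let-7d with let-7f and let-7a, let-7b with let-7c, miR-23a with miR-27a, and the miR-183 cluster. In the last, miR-182 was read on no 67NR array, and its direction follows largely from that. The 4 lower ones were miR-16 with miR-15a, miR-497 with miR-195, miR-221 with miR-222, and miR-20b with miR-106a. let-7c, let-7f and miR-16 are each also encoded at another locus, so their values cannot be assigned to these clusters alone. Clusters of unmatched members, such as the Sfmbt2 block, are not counted. The cluster on chromosome 17 within the bounds of Spaca6 was mostly higher: miR-99b (1.32), let-7e (1.09) and miR-125a-5p (0.90) passed as higher, and miR-125a-3p (-0.68), the other strand of the miR-125a hairpin, passed as lower but turned sign under other scalings.

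Lists of miRNAs that have been reported to act in breast cancer metastasis held members in both directions. Of 10 reported to promote it, 3 passed as higher (miR-21, miR-155 and miR-182) and 1 did not pass. Another 6 passed as lower: miR-10b, miR-103, miR-107, miR-221, miR-222 and miR-9. miR-9 (-0.91) turned sign under at least 1 other scaling. miR-155 and miR-182 were read on no 67NR array and miR-10b on no 4T1 array, so their direction follows largely from that. Among the 7 read on all 6 arrays 1 was higher, 5 lower and 1 did not pass, with a median of -1.82. The median difference of the 10, floored values included, was -1.36. Of 11 reported to suppress it, 6 are members. Of these 2 passed as higher, miR-31 and miR-146a, and 4 as lower, miR-34a, miR-148a, miR-126-3p (-2.68) and miR-193b. miR-146a (0.19) turned sign with normexp and miR-193b (-0.53) under at least 1 other scaling. Neither passed with a term for the slide in the fit. miR-146a was read on no 67NR array, and miR-148a was at the floor in 4T1. Among the 4 read on all 6 arrays 1 was higher and 3 lower. The median of the 6 was -1.60. Beside the 32.1% and 47.3% of all tested miRNAs that were higher and lower, neither list went 1 way.

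Markers of cell types were checked on the deposited signals before scaling. None of the 5 miRNAs of the miR-200 family, the defining miRNAs of epithelium, is a member. miR-200c gave 13.5 ± 3.43 units (SD, n = 3) in 67NR, read on 1 array, and -2.22 ± 1.32 in 4T1, read on none. miR-141 gave 16.04 ± 3.06 and -1.83 ± 0.91 units, read on 1 array and on none. Of 5 further epithelial miRNAs, miR-205, miR-203 and miR-184 were read on no array of either line, while miR-31 and miR-31* were read on all 6 and were higher in 4T1. All 6 haematopoietic miRNAs and all 6 muscle miRNAs on the array were read on no array of either line; their summed signal was 16.02 and 9.77 units in 67NR and 15.1 and 0.0423 in 4T1. Of 9 mesenchymal and fibroblast miRNAs 6 were read on none of the 6 arrays, miR-214, miR-143 and miR-145 among them, and miR-199b on 1 4T1 array. The other 2, miR-140 and miR-140*, were read on all 6, at 57.5 and 58.7 units in 67NR and 101.5 and 142.7 in 4T1. These units are not scaled, and the percentile used for scaling was 358 to 460 units in 67NR and 889 to 1136 in 4T1. On the main scale miR-140 passed as lower in 4T1 (-0.48) and miR-140* did not pass (-0.02). The direction of miR-140 turned under other scalings. Of the 2 endothelial miRNAs miR-126-3p was read on all 6 arrays, at 108 units in 67NR and 41.6 in 4T1, and miR-126-5p on none. Of 10 miRNAs of the nervous system 4 were read on all 6 arrays (miR-9, miR-9*, miR-7a and miR-128), miR-129-3p on 2 67NR arrays and the other 5, with miR-124 among them, on none. The part of other cell types in the results was not tested.

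The members' levels in the other lines of the series are given side by side, since all comparisons share lines. miR-125b-5p was at a mean of 2.82 in 168FARN and 3.23 in 4TO7, nearer to 4T1 than to 67NR. So was miR-21, at 4.24 and 3.84, and miR-130a, at 1.47 and 1.38. Of the 31 miRNAs higher in 4T1 and read on all 6 arrays, 25 were closer to their 4T1 level than to their 67NR level in 168FARN and 25 in 4TO7. Of the 78 lower ones, 64 and 68 were. These counts are on the main scale, and the 78 include 35 calls that did not hold under the 4 other scalings. How the counts move with the scaling was not tested. miR-196a was at the floor in both other lines. So was miR-10b, although 2 of the 3 168FARN arrays marked it as read, at a mean of 17.6 units. miR-10a was read on all 3 168FARN arrays, at 118 units, and on no 4TO7 array. Of the 18 miRNAs read in 67NR and on no 4T1 array, 2 were read on all 3 arrays of 168FARN and 0 on all 3 of 4TO7. miR-34a differed among the other lines, at -0.92 in 168FARN and at the floor on every array of 4TO7.

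**Figure D5:**
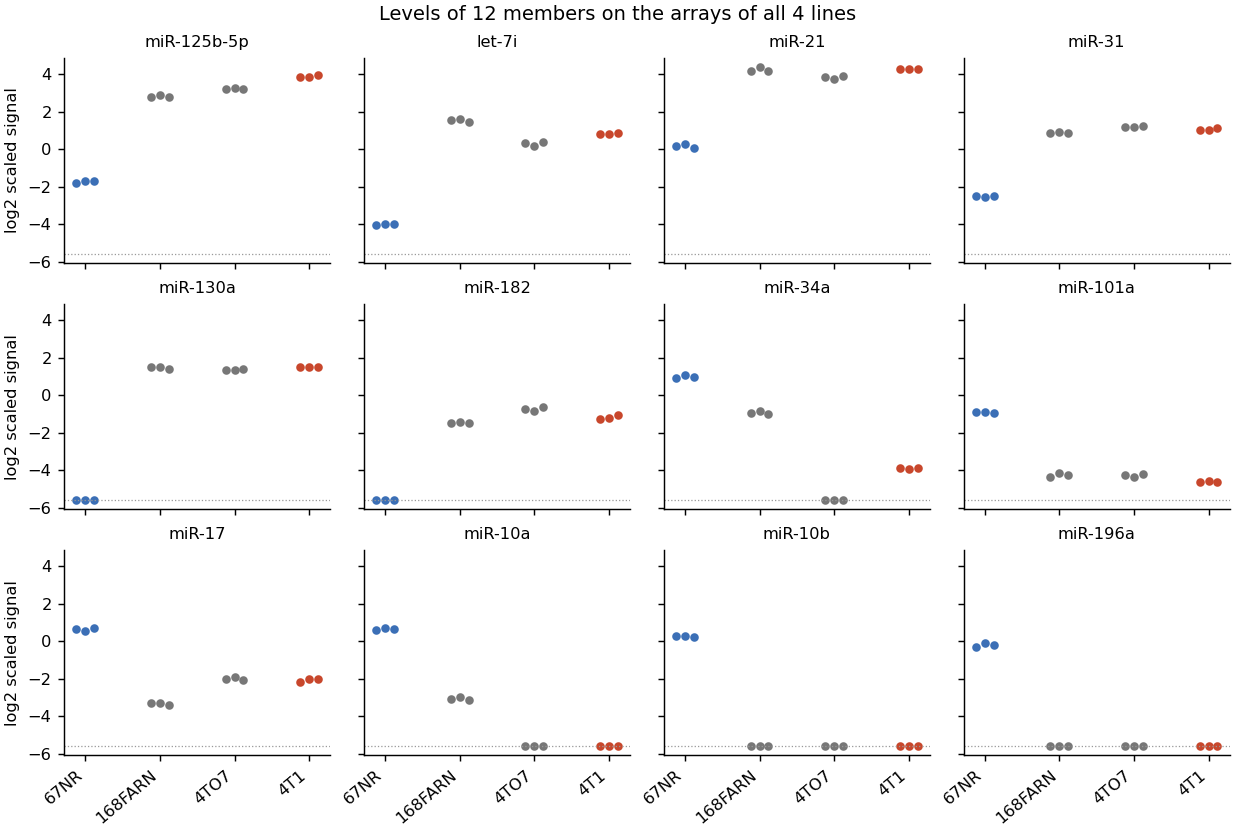
Log2 scaled signal (y axis) of 12 members on each of the 3 arrays of the 4 lines (x axis), with 67NR in blue, 4T1 in red and the other lines in grey; the dotted line is the floor of -5.58. miR-125b-5p, miR-21 and miR-130a are low in 67NR alone, and miR-10b and miR-196a are above the floor in 67NR alone.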

How the data were processed

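Per the file headers, the deposited intensity of each spot is a background-subtracted signal from Agilent Feature Extraction 10.2.1.3, with no scaling between arrays by the authors. Control spots and flagged spots were left out, the spots of a probe averaged and the brightest probe taken for each miRNA. Signals were scaled to the array's own 75th percentile of 170 probes that all 12 arrays read, values under the floor of 0.0209 were raised to it and log2 was taken. A miRNA was called read on an array if over 50% of the spots of its brightest probe were well above background, and unread in a line only if none of its probes was read there. limma 3.58.1 in R 4.3.3 fitted the 4 lines to all 12 arrays (8 residual degrees of freedom) over 224 miRNAs. The number of arrays limits the precision; the median SE of a difference was 0.0528. A miRNA read in 1 of these lines and not the other has a lower bound: its mean there over, on each other array, the lowest level read or its own floored level where that is higher. The fit was also run on simulated data with levels and spreads taken from these arrays. Named were the 12 highest and 12 lowest miRNAs read on all 6 arrays with no overlap, the 6 largest bounds each way, and members of lists with their seed, strand and cluster partners. Members, lists and tests were chosen with earlier results of these data known, so they are no independent support. Sequences, positions and gene bounds are from RefSeq. Other scalings, background, floors, filters, probe summaries, a slide term, a replicate block, left-out arrays and variance models were tried.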

Additional observations from a re-analysis of the deposited data

Results flagged for a closer look

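Control probes that no comparison uses differed between the lines. The probes named hur_5 averaged 194 signal units on the 67NR arrays and 4.93 on the 4T1 arrays. The probes named hur_1 averaged 203731 units on the 67NR arrays and 58357 on the 4T1 arrays. hur_6 differed the other way: 67NR gave 59522 to 66414 units, below every 4T1 value (72153 to 88683). In 168FARN and 4TO7 hur_5 gave 1.25 to 3.44 and 1.37 to 2.49 units, and hur_1 50789.5 to 67010 and 45129 to 49181. For both probes these values lie nearer to 4T1 than to 67NR. For hur_6 the 4TO7 arrays gave 56446 to 62462 units, which overlaps 67NR. The part of these control values in the miRNA differences was not tested.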

How the results depend on the processing

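Over all 224 miRNAs the number called stayed within 1.5 times 178 under every alternative but 1, from 124 with a minimum of 2-fold to 211 with normexp; it was 110 when a miRNA had to be read on all 6 arrays, which leaves 118 tested. With no scaling 66 were called lower. With normexp 39 were called higher and 172 lower. With the filter on all 6 arrays 31 were higher, and with a minimum of 2-fold 46 were. Under the filter on all 6 arrays the Hox cluster had 1 lower call and the Sfmbt2 cluster 0 higher calls, since their other members are read in 4T1 or in 67NR and not in both, and Sfmbt2 had 3 higher calls with normexp. The cause of the other changes was not tested. Leaving out each array in turn gave 177 to 180 calls.

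Of the named miRNAs, these turned sign. With the 75th percentile of all probes miR-125a-3p came to 0.026, miR-29c to 0.29, miR-30b to 0.43, miR-322 to 0.18 and miR-99a to 0.39. With no scaling miR-125a-3p came to 0.62, miR-15b to 0.44, miR-29c to 0.88, miR-30b to 1.02, miR-322 to 0.77 and miR-99a to 0.99. With quantile scaling miR-15b came to 0.10, miR-322 to 0.24 and miR-99a to 0.36. With the median ratio miR-125a-3p came to 0.37, miR-15b to 0.19, miR-29c to 0.63, miR-30b to 0.78, miR-322 to 0.52 and miR-99a to 0.74. With normexp miR-20a* came to -0.42, miR-30b* to -0.45 and miR-503 to -0.41. Of all called members 27 turned sign with normexp, all of them higher by 0.14 to 1.93 on the main scale, and the cause was not tested.

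A slide term, estimated through 168FARN, which lies on both slides, left 174 calls; 8 called members no longer passed. The same replicate numbers did not go together, with correlations of deviations of 0.08, 0.15 and -0.01 for numbers 1, 2 and 3, and a replicate block left 178 calls. Signal over background limits the miRNAs at the floor, whose order is unknown.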

Other observations

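A few members outside the groups described so far were read in 67NR and not in 4T1. miR-192, a liver and gut miRNA induced by p53, read -2.73, -2.60 and -2.70 in 67NR and the floor on each 4T1 array, and was at least 7.48-fold lower in 4T1. miR-194, encoded on chromosome 19, where miR-192 lies, and on chromosome 1, was at least 2.70-fold lower. Its value cannot be assigned to either locus. miR-551b, within the bounds of Egfem1, was at least 12.3-fold lower. miR-122, miR-375, miR-216a and miR-217, the other liver and pancreas miRNAs of that list, were read on no array of either line. Of the 66 miRNAs of the imprinted Dlk1-Dio3 cluster on the array 3 are members. All 3 passed as lower in 4T1, beside 47.3% of all tested, and 1 of them, miR-431*, passed under all 4 other scalings. miR-431* was read on no 4T1 array, and its direction follows largely from that. miR-487b and miR-494 were read on every array of both lines. Before scaling they gave 36.6 and 331 units in 67NR and 31.9 and 286 in 4T1. Of 30 miRNAs of the X-linked cluster near Fmr1 none was read on an array of either line. Both strands of the miR-340 hairpin, within the bounds of Rnf130, were lower: miR-340-5p read -2.45, -2.58 and -2.51 in 67NR and -5.04, -4.91 and -4.93 in 4T1, a 5.46-fold difference.

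Of the 118 miRNAs read on all 6 arrays 9 did not pass. miR-210, a target of the hypoxia response, read -1.0, -0.86 and -1.09 in 67NR and -1.02, -1.04 and -0.93 in 4T1, so its arrays overlapped. miR-365 had a difference of -0.05 ± 0.07 (SE, log2). These values are relative to the main scale, and under the other scalings they move with the median. miR-202-3p and miR-697 had differences of -1.43 ± 0.66 and -1.33 ± 0.78 (SE, log2) that did not pass. miR-202-3p read 0.31, -1.37 and -1.54 in 67NR against -2.15, -2.47 and -2.26 in 4T1, and without replicate 1 of 67NR the differences were -0.84 and -0.62.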
